A study of Mus musculus with 44 samples.

Results

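The genes described are Vil1, Gpa33, Slc5a1, Cdh17, Ceacam1, Anpep and Cftr, 7 genes that are typical of intestinal epithelium, measured in the gastric corpus of KO and WT mice. They were picked by name as brush-border, adhesion, channel and transporter genes. They are 7 of the 31484 genes with a transcript in the deposited data, and 23 of its transcripts belong to them. KO mice lack the beta subunit of the H+/K+ATPase, the proton pump of parietal cells, and do not secrete acid. KO and WT mice were of the BalbC background, female and 13 months old, and received NTZ (netazepide, a gastrin receptor antagonist, labelled yf) or its vehicle PEG. RNA from corpus mucosa was sequenced as bulk tissue in 44 libraries, with 13 of KO/PEG, 11 of KO/NTZ, 11 of WT/PEG and 9 of WT/NTZ mice. The KO is a germline deletion of 1 gene backcrossed onto BalbC, so every cell carries it.

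Intestinal epithelial cells carry a brush border, an apical lawn of microvilli held up by bundled actin and covered with digestive enzymes and transporters. The transcription factors Cdx1 and Cdx2 set this identity. Normal corpus mucosa does not make it, and glands that take on intestinal genes (intestinal metaplasia) are described after long loss of acid-secreting cells. Spasmolytic polypeptide-expressing metaplasia (SPEM), the other form, is marked by mucous neck cell genes. In bulk tissue, more cells of a type and more RNA per cell cannot be told apart.

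The total estimated count per library was between 6065084 and 21945124, and 3 counts, taken as the smallest signal, corresponded to 0.137 to 0.495 CPM (counts scaled to the library total) before normalization. CPM values below were normalized by the TMM method, and 14901 genes with enough counts were fitted with the quasi-likelihood test of edgeR, at a threshold of 0.05 on p adjusted by Benjamini and Hochberg over all of them. Atp4b, which encodes the deleted subunit, had 2.28 to 40.6 CPM in KO libraries and 2139 to 5738 CPM in WT libraries. Mitochondrially encoded genes held a median of 4.83% of the counts in KO/PEG and 3.78% in KO/NTZ libraries, against 9.53% with WT/PEG and 9.38% with WT/NTZ. Among WT/NTZ libraries, 2 stood apart from the other 7 for several of the genes below, and results that rest on them are given with and without them. One animal number stands on 2 WT/PEG titles, and the number 110 on titles of both KO groups. Numbers of 100 or above stand on all 11 WT/PEG, 4 of 9 WT/NTZ, 7 of 13 KO/PEG and 1 of 11 KO/NTZ libraries. Comparisons of the groups are therefore partly confounded with animal number.

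The label of intestinal-type genes was checked against genes that define intestine. Cdx1 reached at most 2 counts in any of the 44 libraries and Cdx2 at most 3 counts, with a median of 0 CPM in every group. Cdh17, the cadherin of intestinal cells, had 58 counts over all 44 libraries and at most 8 in one. The brush-border enzyme genes Alpi (intestinal alkaline phosphatase), Lct (lactase) and Sis (sucrase-isomaltase) had medians of 0.219, 0.188 and 0 CPM in KO/PEG libraries against 0.323, 0.176 and 0 CPM in WT/PEG libraries. Muc2, the goblet cell mucin, had a median of 0.292 CPM in KO/PEG and 0.323 CPM in WT/PEG. These genes were at or near the smallest signal in every group. Other intestinal genes, also named whatever their values, went the other way. Fabp2, Myo1a, Lgals4, Muc13, Dpp4, Gucy2c and Tff3 were higher in KO/PEG than in WT/PEG libraries, as given below, and Hnf4a did not pass. The 7 genes are called by their names here and not taken as a sign of intestinal cells.

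Vil1 encodes villin, the actin-bundling protein of microvilli (chromosome 1 of GRCm38 from 74409376 to 74435559, ENSMUSG00000026175). Gpa33 encodes a surface antigen of intestinal epithelium (chromosome 1 from 166130238 to 166166510, ENSMUSG00000000544). Anpep encodes aminopeptidase N, a brush-border peptidase that the study also took as a chief cell marker (chromosome 7 from 79821803 to 79861059, ENSMUSG00000039062). Their promoters are printed because Vil1 and Gpa33 had the smallest p of the 6 genes tested in WT/NTZ versus WT/PEG, and Anpep is the 1 gene of the 7 that was lower in KO mice. Each is the 250 bases before the RefSeq start on GRCm38.p6, 5′ to 3′ on the gene's strand, with a match to the motif TTTATG or TTTATT (bound by Cdx factors) in capitals.
Vil1 (chr1:74409134-74409383, plus strand): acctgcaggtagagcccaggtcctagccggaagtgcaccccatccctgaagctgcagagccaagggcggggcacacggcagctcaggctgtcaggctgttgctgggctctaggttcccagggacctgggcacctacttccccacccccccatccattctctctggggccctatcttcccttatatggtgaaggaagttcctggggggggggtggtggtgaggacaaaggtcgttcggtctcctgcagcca
Gpa33 (chr1:166129971-166130220, plus strand): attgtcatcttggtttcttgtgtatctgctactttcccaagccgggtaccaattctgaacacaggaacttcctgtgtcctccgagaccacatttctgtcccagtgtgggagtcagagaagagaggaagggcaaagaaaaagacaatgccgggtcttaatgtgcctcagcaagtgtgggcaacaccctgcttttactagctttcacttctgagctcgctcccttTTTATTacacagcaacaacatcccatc
Anpep (chr7:79848211-79848460, minus strand): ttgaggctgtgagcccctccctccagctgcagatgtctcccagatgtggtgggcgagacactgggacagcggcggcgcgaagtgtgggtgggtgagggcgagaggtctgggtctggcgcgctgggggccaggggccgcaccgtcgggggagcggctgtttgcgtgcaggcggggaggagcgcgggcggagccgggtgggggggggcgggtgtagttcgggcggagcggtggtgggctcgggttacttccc

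RefSeq promoters were found for 6 of the 7 genes. On either strand, 1 of these 6 held the Cdx motif, Gpa33, at positions -27 to -22 from the start, against 25.5% of 32851 promoters of the same length. The HNF4-type letters CAAAGT were in none of the 6 and in 12.6% of all promoters. The GATA-type letters AGATAA, or their variant TGATAA, were in none and in 16.6%. The TATA box TATAAA was in none and in 12.4%. Promoters of Anpep and Cftr held 23 and 30 CpG pairs, those of Vil1, Gpa33, Slc5a1 and Ceacam1 5, 4, 6 and 3, and the median of all promoters was 6. The Anpep stretch lies inside the gene span given above. Which Anpep transcript uses this start was not examined. A letter match is a description and says nothing of binding.

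Microvillus structure is represented by Vil1. Vil1 had 7.15, 12.3 and 19.5 CPM (lowest, median and highest) in WT/PEG, 9.20, 13.2 and 61.5 CPM in WT/NTZ, 50.7, 78.5 and 153.8 CPM in KO/PEG and 52.1, 68.0 and 94.2 CPM in KO/NTZ. All 13 KO/PEG libraries were above all 11 WT/PEG libraries, and 8 of 11 KO/NTZ libraries were above all 9 WT/NTZ libraries. Vil1 rose in KO/PEG versus WT/PEG by a log2 fold change of 2.81 (SE 0.25, adjusted p = 9.02e-13 from edgeR with Benjamini-Hochberg adjustment). In KO/NTZ versus KO/PEG the log2 fold change was -0.26 (SE 0.22, adjusted p = 0.455 from edgeR).

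Among the adhesion genes, Gpa33 had 0.32, 2.43 and 8.94 CPM in WT/PEG, 0.613, 4.67 and 70.6 CPM in WT/NTZ, 27, 42.1 and 89.4 CPM in KO/PEG and 25.7, 33.7 and 49.3 CPM in KO/NTZ. KO/PEG and WT/PEG libraries did not overlap, while no KO/NTZ library was above the highest WT/NTZ library. Gpa33 rose in KO/PEG versus WT/PEG by 3.91 on the log2 scale (SE 0.51, adjusted p = 1.19e-08 from edgeR).

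Ceacam1, an immunoglobulin-type adhesion molecule of apical membranes (chromosome 7 from 25461707 to 25477603, ENSMUSG00000074272), had 4.95, 6.96 and 8.68 CPM in WT/PEG, 4.91, 8.64 and 15.2 CPM in WT/NTZ, 32.2, 66.4 and 162.5 CPM in KO/PEG and 40.9, 74.6 and 96.9 CPM in KO/NTZ. KO and WT libraries did not overlap under either treatment. Ceacam1 rose by 3.62 on the log2 scale in KO/PEG versus WT/PEG (SE 0.24, adjusted p = 4.29e-16 from edgeR), a fold of 12.3. Ceacam2, a close copy whose reads kallisto could divide with it, had at most 1.08 CPM in any library. Cdh17 (chromosome 4 from 11758147 to 11817895, ENSMUSG00000028217), the other adhesion gene, was left out of the test for low counts. It had 10 counts over the 11 WT/PEG, 9 over the 9 WT/NTZ, 22 over the 13 KO/PEG and 17 over the 11 KO/NTZ libraries, and no fold is given. A difference in Cdh17 was not detectable at this depth.

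Of the transport genes, Slc5a1 encodes the apical sodium-glucose cotransporter (chromosome 5 from 33104219 to 33162870, ENSMUSG00000011034). It had 0.705, 1.78 and 3.12 CPM in WT/PEG, 0.929, 2.79 and 4.66 CPM in WT/NTZ, 4.02, 10.3 and 17.0 CPM in KO/PEG and 7.76, 10.8 and 25 CPM in KO/NTZ. KO/PEG and WT/PEG libraries did not overlap, nor did KO/NTZ and WT/NTZ libraries. Slc5a1 rose by 2.49 on the log2 scale in KO/PEG versus WT/PEG (SE 0.25, adjusted p = 3.08e-11 from edgeR). In KO/NTZ versus KO/PEG its log2 fold change was 0.33 (SE 0.22, adjusted p = 0.331 from edgeR).

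Cftr encodes a chloride and bicarbonate channel of secreting epithelia (chromosome 6 from 18170687 to 18322768, ENSMUSG00000041301). It had 0, 0.106 and 0.543 CPM in WT/PEG, 0, 0.369 and 1.40 CPM in WT/NTZ, 1.15, 5.08 and 12.2 CPM in KO/PEG and 1.83, 5.30 and 17.4 CPM in KO/NTZ. All 13 KO/PEG libraries were above all WT/PEG libraries, and all 11 KO/NTZ libraries above all WT/NTZ libraries. The 11 WT/PEG libraries held 20 counts of Cftr in all, at most 4 in one, so its fitted fold against them rests on few reads. Cftr rose by 4.93 on the log2 scale in KO/PEG versus WT/PEG (SE 0.54, adjusted p = 1.94e-10 from edgeR), the largest change of the 6 genes tested.

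Anpep went the other way. It had 158.3, 234.9 and 320.7 CPM in WT/PEG, 166.3, 230.8 and 307.8 CPM in WT/NTZ, 88.3, 171.2 and 256.2 CPM in KO/PEG and 89.3, 125.7 and 143.8 CPM in KO/NTZ. KO/PEG and WT/PEG libraries overlapped, with 6 of 13 KO/PEG libraries below all WT/PEG libraries, whereas all 11 KO/NTZ libraries were below all 9 WT/NTZ libraries. Anpep fell by 0.49 on the log2 scale in KO/PEG versus WT/PEG (SE 0.13, adjusted p = 0.0013 from edgeR). Among animals numbered 100 or above the log2 fold change was -0.29 (adjusted p = 0.127 from edgeR), and what these numbers stand for is not given in the sources used here. Pgc, the pepsinogen gene of chief cells, had a median of 8297 CPM in KO/PEG libraries and a lowest value of 84590 CPM in WT/PEG libraries. The part of chief cells in the fall of Anpep was not tested.

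**Figure D1:**
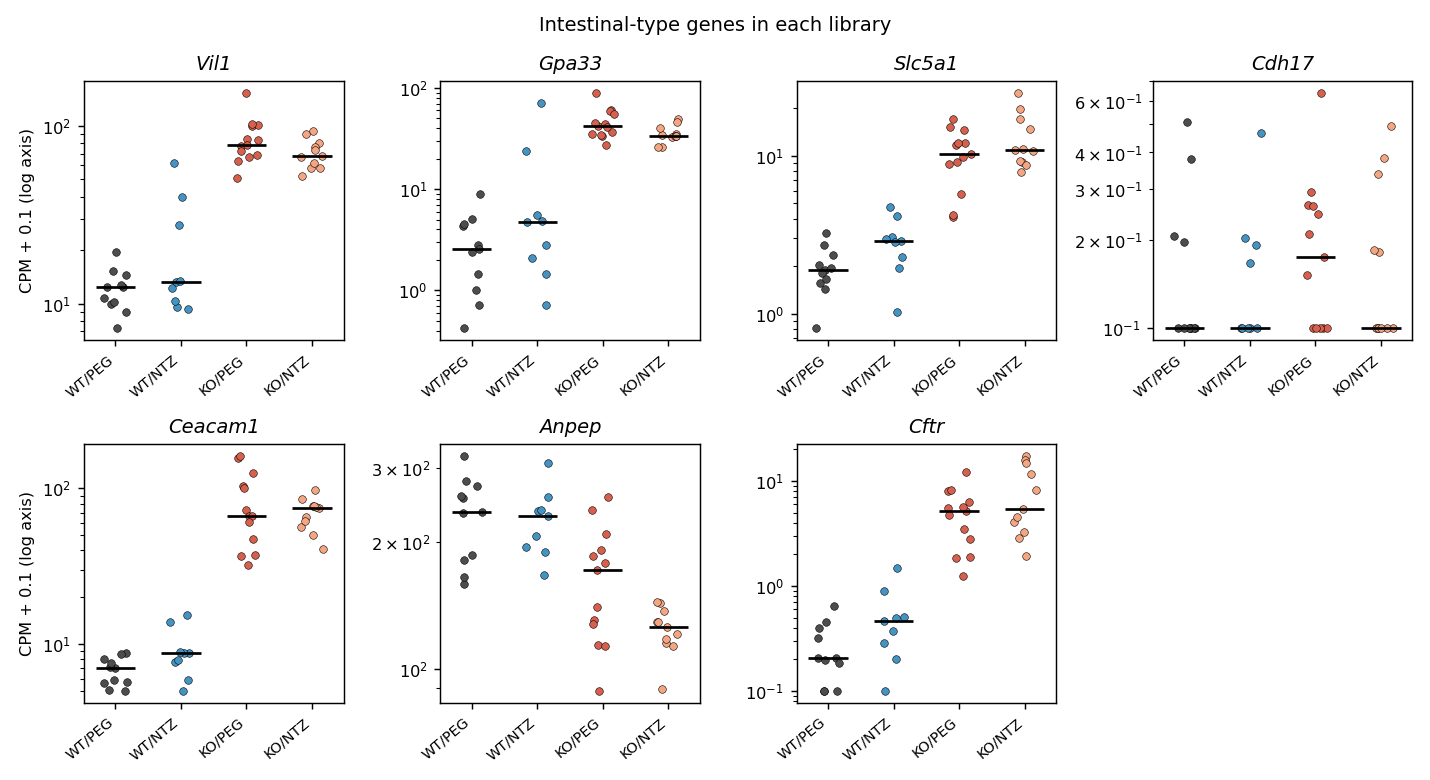
CPM + 0.1 on a log axis of Vil1, Gpa33, Slc5a1, Cdh17, Ceacam1, Anpep and Cftr in each of the 44 libraries by group, with a bar at the group median. Vil1, Gpa33, Slc5a1, Ceacam1 and Cftr separated KO/PEG from WT/PEG libraries, Anpep was lower in KO libraries with overlap, and Cdh17 stayed at or near 0.1, which stands for no counts.

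In KO/PEG versus WT/PEG, 5 of the 7 genes rose and 1 fell, with Cdh17 not tested. This count of 6 called has to be read against the background, since 74.7% of all genes tested passed, 37.5% as higher and 37.2% as lower. A lack of overlap was less common, as 5.46% of genes had every KO/PEG library above every WT/PEG library, and Vil1, Gpa33, Slc5a1, Ceacam1 and Cftr were among them. The median log2 fold change of the 6 genes tested was 3.21, against 0.00 over all genes tested. All but Cdh17 stand in lists that the study tabulated from these libraries, so their direction is not independent evidence. The 6 calls held with the log2 share of mitochondrial counts as a covariate. When libraries were scaled by the pan-epithelial genes Epcam, Cdh1, Krt8, Krt18 and Cldn7, the median over all genes moved to -1.54 on the log2 scale, and 525 genes were called higher and 13106 lower in place of 5587 and 5538. Under this scaling Vil1, Gpa33, Slc5a1, Ceacam1 and Cftr still rose, by 1.25, 2.36, 0.93, 2.04 and 3.42 on the log2 scale. Anpep fell by 2.00. The 5 scaling genes had not moved alike. Their median log2 fold change was 1.27 without this scaling, and Cldn7, described below, rose by more. After it 1 of the 5 was called higher and 3 lower. The scale is the geometric mean of the 5 genes, so each has the same weight on the log scale and the rise of Cldn7 enters it. A scale without Cldn7 was not tested.

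On a scale per length, Vil1 was above Ceacam1 by median in WT/PEG and below it in KO/PEG libraries. The other 5 genes kept their places. In CPM the median of Vil1 was above that of Ceacam1 in both groups (12.3 and 6.96 in WT/PEG, 78.5 and 66.4 in KO/PEG). The per-length value of Ceacam1 depends on how its counts were divided between transcripts of unlike length, which is described below. Median TPM (transcript counts divided by length and scaled to the library) in WT/PEG libraries were 75.9 for Anpep, 4.75 for Vil1, 3.03 for Ceacam1, 1.36 for Gpa33, 0.491 for Slc5a1, 0.0325 for Cftr and 0 for Cdh17. In KO/PEG libraries they were 57.9 for Anpep, 48.7 for Ceacam1, 29.9 for Vil1, 23.3 for Gpa33, 3.57 for Slc5a1, 0.937 for Cftr and 0.0318 for Cdh17. The TPM ranges of Vil1 and Ceacam1 overlapped in WT/PEG (3.0 to 8.69 and 2.31 to 5.19) and in KO/PEG libraries. Anpep had the highest median in both groups, and Ceacam1 (20.2 to 117.5 TPM) and Anpep (33.2 to 97.2 TPM) overlapped in KO/PEG libraries. Vil1 (21 to 66.8 TPM) and Gpa33 (16.5 to 53.5 TPM) overlapped as well.

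The next comparison asked whether NTZ changed these genes in KO mice. None of the 6 genes tested passed in KO/NTZ versus KO/PEG by edgeR, 1 had an unadjusted p below the threshold, and 5.56% of all genes passed. Of these, 442 were higher and 387 lower, against 122 and 206 with pan-epithelial scaling, which moved the median over all genes to -0.17, and 542 and 707 by DESeq2. Among the 6 genes DESeq2 called 1, Anpep. All 11 KO/NTZ libraries had less Anpep than the KO/PEG median, although the groups overlapped, and its log2 fold change was -0.41 (SE 0.14, adjusted p = 0.0643 from edgeR and 0.0328 from DESeq2). Over the other fits with edgeR the adjusted p of Anpep was 0.0537 to 0.361, highest among animals numbered below 100. Of the 13 KO/PEG libraries 6 were numbered below 100, against 10 of the 11 KO/NTZ libraries. Median Anpep in KO/PEG was 135.1 CPM below 100 and 191.3 CPM at 100 or above. The effects of NTZ and of animal number are thus partly confounded here. The 95% intervals of the log2 fold change were -0.70 to 0.18 for Vil1, -1.22 to 0.45 for Gpa33, -0.66 to 0.16 for Ceacam1, -0.10 to 0.77 for Slc5a1 and -0.10 to 1.38 for Cftr. All 5 intervals hold 0, which does not show that NTZ had no effect.

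In WT mice, 1 of the 6 genes tested passed in WT/NTZ versus WT/PEG, against 1.03% of all genes. This was Gpa33, with a log2 fold change of 2.09 (SE 0.51, adjusted p = 0.0297 from edgeR). Of the 9 WT/NTZ libraries, 1 had 70.6 CPM and another 23.8 CPM, while the other 7 had 0.613 to 5.48 CPM, within the range of WT/PEG. Without these 2 libraries the log2 fold change of Gpa33 was 0.0039 (adjusted p = 1 from edgeR). Vil1 had a log2 fold change of 0.85 (SE 0.25, adjusted p = 0.11 from edgeR), with 61.5 and 27.6 CPM in these 2 libraries and 39.7 CPM in that of animal 86, which had 4.67 CPM of Gpa33, against 9.20 to 13.4 CPM in the rest. The plot of Vil1 against Gpa33 shows 1 of the 2 libraries between the WT and the KO libraries and the other among the KO libraries.

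**Figure D2:**
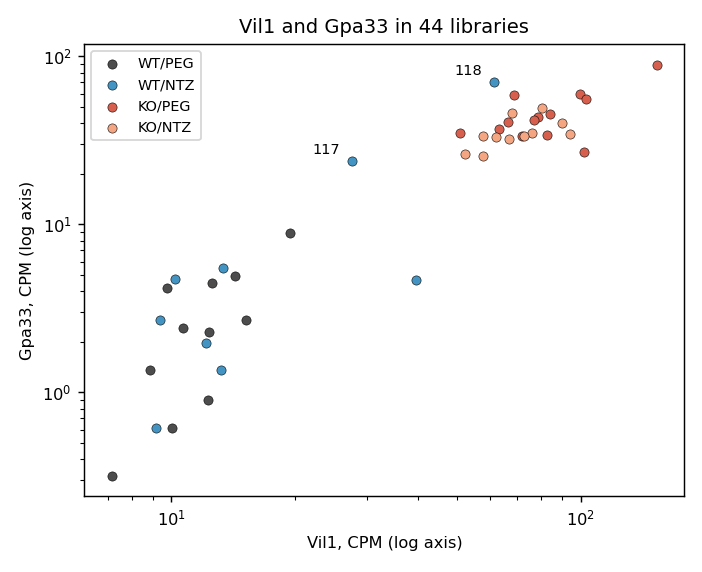
Vil1 and Gpa33 in CPM on log axes, 1 point for each of the 44 libraries, coloured by group. The 2 labelled WT/NTZ libraries (27.6 and 23.8 CPM, and 61.5 and 70.6 CPM) lie away from the other WT libraries, which had at most 8.94 CPM of Gpa33.

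Ceacam1 and Cftr were also highest among WT/NTZ libraries in the 2 with the most Gpa33. Ceacam1 had 13.9 CPM in the first and 15.2 CPM in the second against at most 8.88 CPM in the other 7, and Cftr 1.40 and 0.796 CPM against at most 0.403 CPM. The goblet cell genes Fcgbp (111.6 and 222.9 CPM against at most 16.5) and Clca1 (127 and 152.4 CPM against at most 19.3) were high in the same 2 libraries. Genes of other lists described below were high there too. These were the SPEM gene Wfdc2 (61.78 and 43.99 CPM against at most 30.36), Lgals4, Cldn7, Dpp4 and, by little, Mall. The SPEM gene Tff2, at 1017 and 1211 CPM, lay within the range of the other 7. Dmbt1 had 748.9 CPM in the first and 156.8 CPM in the second library, against 34.76 to 197.9 CPM. Slc5a1 had 2.74 and 4.66 CPM there against 0.929 to 4.03 CPM in the other 7, and Anpep, at 230.8 and 188.7 CPM, lay within their range. The B cell gene Cd79a had 17.3 CPM in the library with the most Gpa33 and 0.682 CPM in the second, against 0.123 to 2.04 CPM. The 10 leukocyte genes summed to at most 355.8 CPM in WT/NTZ and 184.3 CPM in WT/PEG libraries. Atp4b was 2139 and 3103 CPM in them and 3024 to 5074 CPM in the other 7, and Pgc 58120 and 137200 CPM against 130300 to 183400 CPM. The 8 squamous forestomach genes summed to 1.13 to 3609 CPM in WT/NTZ and 1.20 to 404.6 CPM in WT/PEG libraries. Their median sums were 686.5 and 2.22 CPM, so this difference was not confined to the 2 libraries. In WT/NTZ versus WT/PEG the 8 genes had a median log2 fold change of 2.47, and 0 of them passed by edgeR. One of them, Krt13, a keratin of squamous epithelium, had 337.8 and 1731 CPM in the 2 libraries and 0.372 to 485 CPM in the other 7. The part of squamous tissue and of leukocytes in these values was not tested.

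Under NTZ, KO/NTZ versus WT/NTZ gave 5 higher genes, 1 lower and Cdh17 not tested, where 35.6% of all genes passed as higher and 36.8% as lower (5307 and 5484 genes, against 400 and 13201 with pan-epithelial scaling). The libraries did not overlap for Slc5a1, Ceacam1 and Cftr, as for 14.4% of genes that were higher, and for Anpep, as for 12.4% that were lower. Ceacam1 had a log2 fold change of 2.93, Cftr 4.09, Slc5a1 2.23, Vil1 1.69, Gpa33 1.43 and Anpep -0.86. Gpa33 passed with an adjusted p of 0.00876 from edgeR, but not when the libraries were scaled by pan-epithelial genes (0.20, adjusted p = 0.662 from edgeR), where Vil1 did not pass either (0.27, adjusted p = 0.23 from edgeR), nor with the mitochondrial covariate (1.28, adjusted p = 0.0512 from edgeR). Without the 2 WT/NTZ libraries with the most Gpa33 its log2 fold change was 3.53. The comparisons share libraries with each other.

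None of the 6 genes passed by edgeR when the NTZ effect of KO mice was set against that of WT mice, where 0.960% of all genes did (36 higher and 107 lower, against 7 and 51 with pan-epithelial scaling), and 3 had an unadjusted p below the threshold. DESeq2 called 2, Gpa33 and Vil1. The difference was -2.47 for Gpa33 (SE 0.67, adjusted p = 0.0566 from edgeR) and -1.11 for Vil1 (SE 0.34, adjusted p = 0.0983 from edgeR) on the log2 scale. Without the 2 WT/NTZ libraries with the most Gpa33 it was -0.39 for Gpa33 and -0.60 for Vil1.

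**Figure D3:**
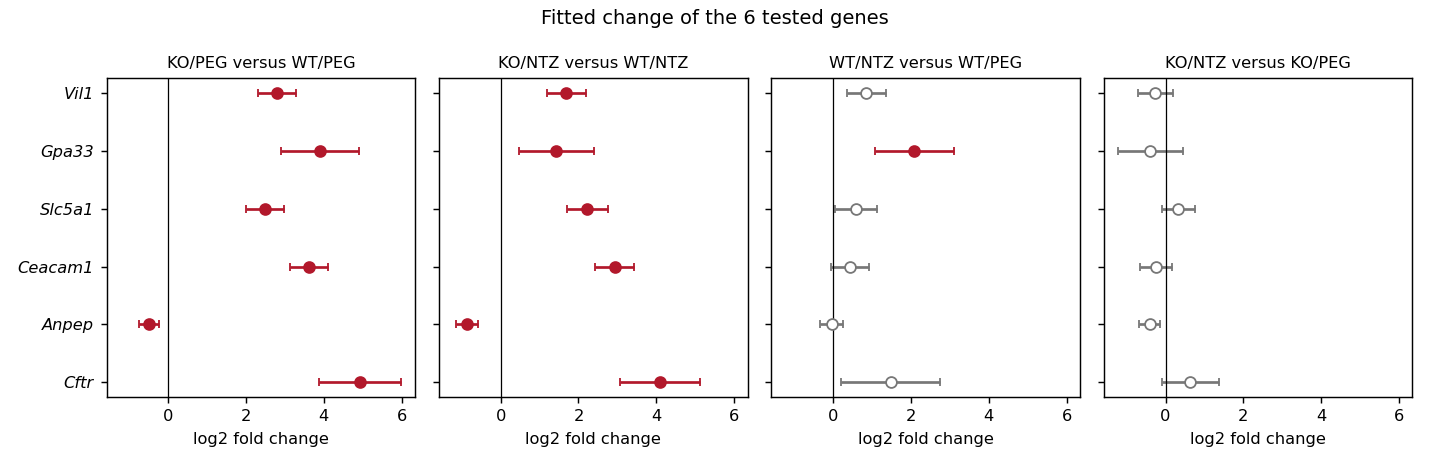
Fitted log2 fold change of Vil1, Gpa33, Slc5a1, Ceacam1, Anpep and Cftr in 4 comparisons, with 95% intervals. Filled red points passed at an adjusted p under 0.05. Both comparisons of KO with WT have 5 genes to the right of 0 and Anpep to the left, the WT comparison of NTZ with PEG has 1 filled point, Gpa33, and the KO comparison has none.

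Single transcripts of the genes were tested too, where 53.5% of 30782 transcripts passed in KO/PEG versus WT/PEG and 2.56% in KO/NTZ versus KO/PEG. All 9 transcripts of the 6 genes with enough counts passed in KO/PEG versus WT/PEG. Ceacam1 was carried by ENSMUST00000098668, which is 1478 bases long, and ENSMUST00000098666, which is 3656 bases long. In KO/PEG versus WT/PEG the shorter rose by 4.29 (SE 0.35) and the longer by 2.82 (SE 0.55) on the log2 scale. In KO/NTZ versus KO/PEG they had log2 fold changes of 0.10 (SE 0.29) and -1.51 (SE 0.52, adjusted p = 0.11 from edgeR). Of the Ceacam1 counts in a library, the shorter took a mean of 39.6% ± 14.1 (SD, n = 11) in WT/PEG, 48.6% ± 18.2 (SD, n = 9) in WT/NTZ, 66.9% ± 22.3 (SD, n = 13) in KO/PEG and 84.2% ± 10.5 (SD, n = 11) in KO/NTZ. The share was 27.3 percentage points higher in KO/PEG than in WT/PEG (two-sided permutation p = 0.00235, 0.0094 adjusted over 4 comparisons), and 17.3 points higher in KO/NTZ than in KO/PEG (permutation p = 0.0279, adjusted 0.0557). The shares overlapped between groups, from 28.7% to 97.6% in KO/PEG and from 66.1% to 98.2% in KO/NTZ, and kallisto divides reads that both transcripts share. The share moved with other features of the libraries. In the 8 KO libraries where over 0.85% of counts had no paired gene, a limit set after the values were seen, the shorter took 91.2% to 98.2% and mitochondrial genes held 1.85% to 3.64% of all counts. In the other 16 KO libraries the shorter took 28.7% to 85.6%, with 2.86% to 14.4% mitochondrial counts. Among these 16, the 9 of KO/PEG had 28.7% to 65.8% and the 7 of KO/NTZ 66.1% to 85.6%. This gap depends on the limit, which left out 4 KO/PEG libraries with 91.2% to 97.6%, so no conclusion is drawn from it. All WT libraries had at most 0.458% of counts without a gene. The part of these library features in the differences of the share was not tested.

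**Figure D4:**
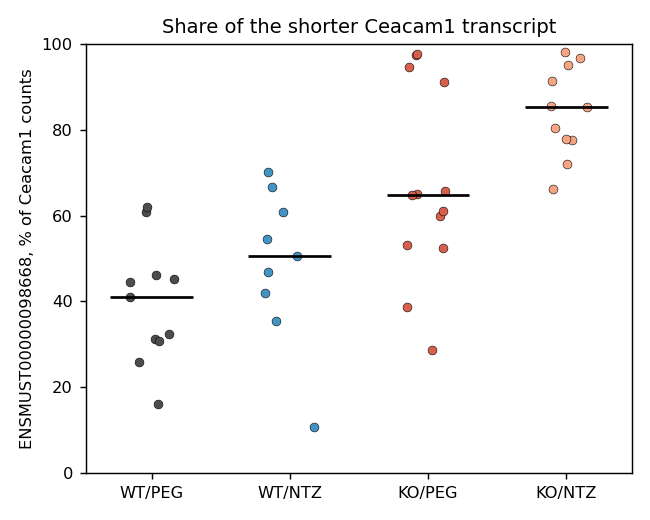
Percent of the Ceacam1 counts of each library assigned to the shorter transcript, by group, with a bar at the median. The KO/PEG median is 64.8% and that of KO/NTZ 85.3%, against 40.9% with WT/PEG and 50.7% with WT/NTZ, and KO/PEG libraries spread the most.

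Gpa33 had 2 tested transcripts, ENSMUST00000166860 and ENSMUST00000060833, which rose by 3.79 and 4.35 on the log2 scale in KO/PEG versus WT/PEG. Its share of ENSMUST00000166860 was 75.9% ± 7.07 (SD, n = 13) in KO/PEG and 69.7% ± 9.82 (SD, n = 11) in KO/NTZ, which differed by -6.22 points (permutation p = 0.0803, adjusted 0.107). Anpep counts came mainly from ENSMUST00000049004, with a median of 223.8 CPM in WT/PEG, while ENSMUST00000107392 had 13.3 CPM in WT/PEG, 9.15 CPM in WT/NTZ, 3.99 CPM in KO/PEG and 1.89 CPM in KO/NTZ. The minor transcript of Anpep fell by 1.24 on the log2 scale in KO/PEG versus WT/PEG (SE 0.45, adjusted p = 0.0198 from edgeR).

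The other intestinal genes were taken from lists by role, and their counts stand beside 37.5% higher and 37.2% lower among all genes in KO/PEG versus WT/PEG. Of 12 microvillus genes 10 were tested, and in KO/PEG versus WT/PEG 3 rose and 1 fell, with a median log2 fold change of 0.18, so that 4 of 10 were called against 74.7% of all genes. Myo1a, the myosin that ties microvillar actin to the membrane, rose from 54.0 to 97.6 CPM in WT/PEG to 107.7 to 239.7 CPM in KO/PEG (log2 1.06, SE 0.14). Mall, a membrane trafficking protein, rose by 2.41 and Anks4b, a microvillus adhesion partner, by 1.22, whereas Ezr (ezrin), which links microvilli to actin, fell by 0.72. Cdhr2, Cdhr5, Espn, Eps8, Pls1 and Slc9a3r1 did not pass.

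Of 22 enterocyte enzymes and transporters 14 were tested, of which 8 rose and 6 fell in KO/PEG versus WT/PEG, and the median log2 fold change was 0.92. Dpp4, a brush-border peptidase, rose by 2.46 on the log2 scale and Slc9a3, the apical sodium-proton exchanger, by 3.86, from a WT/PEG median of 0.0881 CPM. Fabp2, the intestinal fatty acid-binding protein, rose by 1.11. The peptidase genes Enpep and Mme fell by 1.93 and 2.09, so that brush-border peptidases moved in both directions. Of 12 intestinal surface and adhesion genes 10 were tested, and 8 rose and none fell (median log2 fold change 1.45). Lgals4, an intestinal galectin, had 56.2 to 139.8 CPM in WT/PEG and 449.5 to 1289 CPM in KO/PEG, and Muc13, a membrane mucin, had medians of 0.679 and 16.6 CPM. Cldn7, a tight junction protein and also one of the pan-epithelial genes, rose by 4.29.

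All 13 genes of chloride and fluid secretion, the setting of Cftr, were tested, and 6 rose and 4 fell in KO/PEG versus WT/PEG, a share called near that of all genes. Clca1, a secreted regulator of chloride conductance made by goblet cells, rose by 6.63, Kcne3, a potassium channel subunit, by 3.34, and Gucy2c, the guanylin receptor, by 2.66 on the log2 scale. Slc12a2, which loads chloride into the cell, fell by 1.03. Of 12 goblet and Paneth cell genes 8 were tested and all 8 rose. Spink4 was up by 5.08, Fcgbp by 3.83 and Tff3 by 1.90, while Muc2 was too low to test. Lyz1 was 1 of the 8, and most of its KO/PEG counts came from 1 library, as given below. DESeq2 also called all 8 higher, with a median log2 fold change of 3.03 against 3.45 from edgeR. Of 12 transcription factors 8 were tested, 3 rose and 3 fell. Hnf4a, a factor of gut and liver epithelium, had 0.13 (SE 0.08, adjusted p = 0.135 from edgeR), and Onecut2 rose by 2.32. Cdx1, Cdx2, Isx and Atoh1 were too low to test. When libraries were scaled by pan-epithelial genes the counts of higher and lower genes became 1 and 8 of the microvillus list, 2 and 7 of the enterocyte list, 4 and 4 of the surface list, 3 and 9 of the secretion list, 1 and 6 of the transcription factors and 7 and 0 of the goblet and Paneth cell list.

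In KO/NTZ versus KO/PEG few of these genes passed, where 2.97% of all genes passed as higher and 2.60% as lower. The 10 microvillus genes had an adjusted p of 0.144 to 0.941 from edgeR and the 8 transcription factors 0.0708 to 0.945. Apoa4, a lipid-transport apolipoprotein, was the 1 of 14 enterocyte genes that passed, with a rise of 0.60. This rise did not pass with pan-epithelial scaling (0.46, adjusted p = 0.202 from edgeR). Its adjusted p from edgeR was 0.056 with no filter, 0.086 with only the groups compared and 0.054 among animals numbered below 100. Muc13 fell by 2.09 (SE 0.43, adjusted p = 0.00224 from edgeR) and Tm4sf5, a tetraspanin-like membrane protein, by 1.51 among 10 surface genes. Of the secretion genes Kcnq1, a potassium channel, fell by 0.57 and Slc12a2 by 0.59. Among animals numbered below 100 Kcnq1 did not pass (-0.43, adjusted p = 0.105 from edgeR). Slc12a2 did not pass under pan-epithelial scaling (-0.79, adjusted p = 0.127 from edgeR) or among those animals. It also did not pass with no filter, with only the groups compared or without the libraries numbered 110. Lyz1, a Paneth cell lysozyme and close copy of Lyz2, had a log2 fold change of -4.63 (adjusted p = 0.00577 from edgeR), but 10066 of its 11257 counts in KO/PEG came from 1 library, and DESeq2 did not call it (-1.33, adjusted p = 0.198). DESeq2 called Itln1, an intelectin of goblet and Paneth cells, higher (2.00, adjusted p = 0.026 from DESeq2 and 0.0625 from edgeR). It also called 2 enterocyte genes and 1 transcription factor lower, where the main edgeR fit called 0 lower in both lists. Other edgeR fits called further genes. Among animals numbered below 100 Fcgbp (-1.01, adjusted p = 0.0302) and Onecut2 (-1.53, adjusted p = 0.0251) were lower. Clca1 was higher with only the groups compared (1.36, adjusted p = 0.00456) and without the 2 WT/NTZ libraries with the most Gpa33 (1.37, adjusted p = 0.0111).

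**Figure D5:**
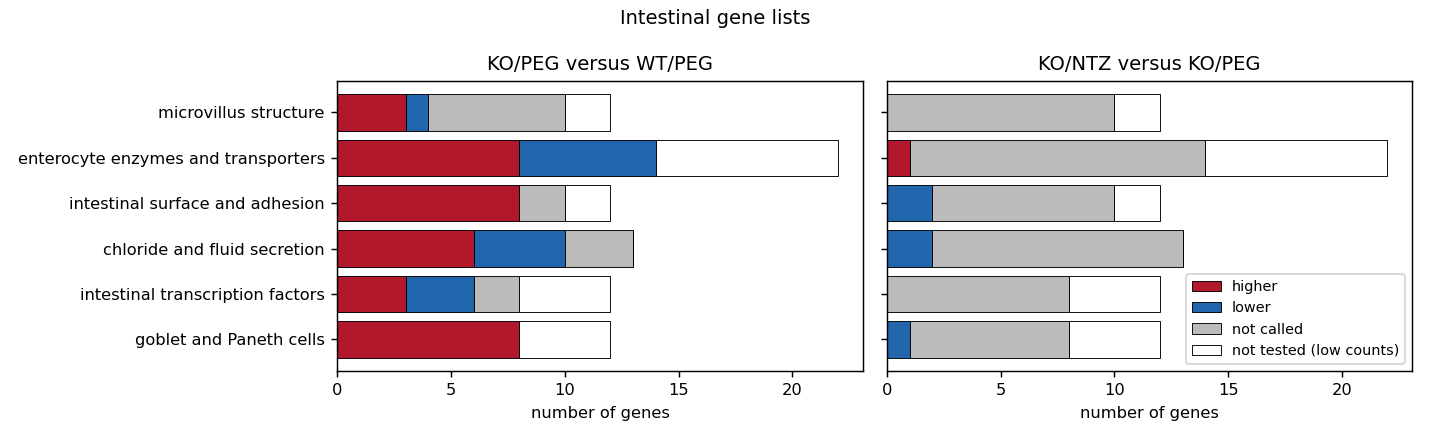
Number of genes of 6 intestinal lists that were higher, lower, not called or not tested for low counts, in KO/PEG versus WT/PEG and KO/NTZ versus KO/PEG. All 8 tested goblet and Paneth cell genes rose in KO/PEG, 1 of them (Lyz1) with most of its KO/PEG counts from 1 library. The microvillus list had 3 higher and 1 lower, which became 1 and 8 with pan-epithelial scaling.

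Marker genes of other cells of the mucosa also differed in KO/PEG versus WT/PEG. All 9 mucous neck and SPEM genes rose, with Clu up by 3.45 and Wfdc2 by 5.60 on the log2 scale, and their sum was 13340 to 64770 CPM in KO/PEG against 1906 to 2833 CPM in WT/PEG, and with pan-epithelial scaling 7 rose and 1 fell. Of the parietal cell genes 7 of 8 fell and 1 rose (7 and 0 with that scaling), and of the pan-epithelial genes 4 of 5 rose. The pan-epithelial sum was 3361 to 10440 CPM in KO/PEG and 2698 to 4106 CPM in WT/PEG. The part of a change in cell makeup in the rise of Vil1, Gpa33, Slc5a1, Ceacam1 and Cftr was not tested. Of the chief cell genes tested, 3 rose and 5 fell, and 1 rose and 7 fell with pan-epithelial scaling. Higher and lower genes numbered 2 and 4 of the surface mucous, 1 and 5 of the pancreatic acinar, 2 and 0 of the liver, 1 and 1 of the squamous, 0 and 5 of the smooth muscle and stroma, 5 and 3 of the endothelial, 4 and 0 of the leukocyte and 1 and 1 of the antral genes. With pan-epithelial scaling they became, in this order, 0 and 6, 0 and 5, 1 and 1, 0 and 5, 0 and 8, 0 and 8, 1 and 5, and 0 and 2.

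Within KO/PEG the genes did not vary as one. Of 15 pairs of the 6 genes tested, 7 had a positive Pearson correlation of log2 CPM over the 13 libraries, and 1 passed after adjustment over the 15 pairs, Vil1 with Ceacam1. Their Pearson r was 0.86 (two-sided permutation p = 5e-05, adjusted 0.00075) and Spearman rho 0.89 (permutation p = 7e-05, adjusted 0.00105), and r was 0.87 without the 2 libraries farthest from the Vil1 median. Within KO/NTZ, over 11 libraries, the same pair had an r of -0.06 (permutation p = 0.859, adjusted 0.944) and a rho of -0.13 (permutation p = 0.712, adjusted 0.825). None of the 15 pairs passed within KO/NTZ, where the lowest r was -0.76 for Vil1 with Cftr (permutation p = 0.00859, adjusted 0.0667) with a rho of -0.73 (permutation p = 0.0144, adjusted 0.0541). The difference between the groups was not tested. Pairs with Cdh17 were not computed.

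In KO/PEG, the 6 libraries of animals numbered below 100 had a median of 100.6 CPM of Vil1 and the 7 numbered 100 or above 71.9 CPM (difference 0.47 on the log2 scale, exact permutation p = 0.0245, 0.147 adjusted over 6 genes). Adjusted p of the other 5 genes in this exact permutation test was 0.19 to 0.518, so that none of the 6 passed. Vil1 ranged from 68.6 to 153.8 CPM in the first and from 50.7 to 84.4 CPM in the second set, so the sets overlapped.

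As a description, the 3 genes whose log2 CPM was most like each gene over the 24 KO libraries, after the group means were subtracted, were taken from 13737 genes. They were Capn2, Nln and Gsdmd for Vil1 (r from 0.86 to 0.89), Anxa11, Cap1 and Arpc1b for Gpa33 (0.80 to 0.82), and Adcyap1r1, Btbd11 and Trim40 for Ceacam1 (0.84 to 0.88). For Slc5a1 they were Pbld2, Diras2 and Casc4 (0.85 to 0.87), for Cftr Mcoln2, Aldh1a3 and Entpd7 (0.80), and for Anpep Pcp4l1, Fbxo21 and Chga (0.78 to 0.81). None of the 7 genes was among them, and the libraries share the mucosa's cell makeup.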

How the data were processed

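Sequencing libraries were made with a stranded mRNA kit and read on a NextSeq instrument. The authors aligned reads to GRCm38 transcripts with kallisto 0.42.4, and the deposited values are estimated counts per transcript, without normalization. They were rounded, paired with genes through the GENCODE annotation for 92372 of 94080 transcripts and summed per gene. The 1708 transcripts not paired held at most 1.31% of a library. Genes were filtered with filterByExpr (minimum count 10, total 15), normalized by TMM and fitted in 1 edgeR 4.0.16 model (R 4.3.3) of all 44 libraries with a mean for each group. Adjusted p is after Benjamini and Hochberg. Standard errors are the log2 fold change over the root of F, and 95% intervals are normal. DESeq2 1.42.0 was an alternative. The study's own test, Sleuth, needs files not used here and was not repeated. TPM used annotated lengths. Permutations numbered 100000 and were two-sided, or exact over every split.

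The 7 genes and the lists were chosen with earlier results of these data known. Named genes were the 7, a set of intestinal genes whatever their values, the 2 with the smallest p of each list and the 3 most like each gene among those of at least 1 CPM in KO libraries. One gene that this rule names is not reported here. Anks4b, the other microvillus genes, Slc9a3, Mme, Cldn7 and Slc12a2 in KO/PEG were chosen after their values were seen. So were Itln1, Clca1, Fcgbp and Onecut2 in KO/NTZ, and the genes given for the 2 WT/NTZ libraries with the most Gpa33. The alternatives that leave these libraries out or use the mitochondrial share were also chosen after values were seen. The labels name separate libraries, 13 of them KO/PEG where the study's text gives fewer KO/PEG mice. The 2 WT/PEG libraries of 1 animal number were used as 2 samples, since the labels list them apart. By chi-square they were the 11th closest of 55 WT/PEG pairs, all of which differed beyond counting noise, so whether they are 1 animal is not known, and summing them changed no call of the 7 genes. Pairs of genes numbered 15 and not the 21 planned, since Cdh17 was not tested. If any library repeats an animal, p-values cover less than the spread between animals. The floor of 3 counts allows for counting error alone, as PCR copies are not separate molecules. The scripts were tested on simulated data. Figures were drawn with matplotlib 3.10.9.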

Additional observations from a re-analysis of the deposited data

Results flagged for a closer look

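In WT/NTZ, 1 library had 70.6 CPM of Gpa33, and the gap to the next, at 23.8 CPM, was 0.669 of the group's range. The highest Cdh17 value of WT/NTZ, 0.365 CPM in the same library, was also far from the others, but it is near the smallest signal. Both gaps passed the critical value of 0.493. Chance passes it in about 1 in 20 groups of normally distributed values, a rate that need not hold for skewed CPM or many zeros. The highest and lowest library of 7 genes were examined, 14 checks in all. The other groups held more than 10 libraries and were not examined in this way.

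For Muc13, the NTZ effect in KO less that in WT mice was -3.50 on the log2 scale (SE 0.70, adjusted p = 0.0103 from edgeR), with effects of -2.09 in KO and 1.41 in WT mice. Without the 2 WT/NTZ libraries with the most Gpa33, which had 9.55 and 3.64 CPM of Muc13 against 0.807 to 3.56 CPM in the other 7, it was -2.79 and did not pass (SE 0.72, adjusted p = 0.0671 from edgeR). For Tm4sf5 it was -1.69 (SE 0.32, adjusted p = 0.00804 from edgeR), and -1.62 without those libraries (adjusted p = 0.0276 from edgeR).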

How the results depend on the processing

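Of the 7 genes, those called in KO/PEG versus WT/PEG stayed at 6 under 10 of 11 alternatives and were 5 among animals numbered 100 or above, where Anpep did not pass. In KO/NTZ versus KO/PEG, DESeq2 called 1 of the genes and 1249 genes in all, against 5.56% of genes by edgeR, and 267 were called with only the groups compared, 328 with scaling by pan-epithelial genes and 101 among animals numbered below 100. In WT/NTZ versus WT/PEG, the genes called among the 6 were 2 by DESeq2 (Gpa33 and Vil1), 0 with only the groups compared, 0 with pan-epithelial scaling, 3 among animals numbered 100 or above and 0 without the 2 WT/NTZ libraries with the most Gpa33. Of all genes 154 were called there, against 0, 55, 580 and 14 under the last 4 of these alternatives. In KO/NTZ versus WT/NTZ 10791 genes were called, and 6835 with the mitochondrial covariate. For the difference of the NTZ effects, 2 of the 6 genes were called by DESeq2 and 1 (Gpa33, adjusted p = 0.0378 from edgeR) with the mitochondrial covariate. Of all genes 0.960% were called there, against 274 genes by DESeq2, 58 with pan-epithelial scaling, 283 with the covariate and 47 without these libraries. The cause of these shifts was not tested. Of the 4 WT/NTZ libraries numbered 100 or above, 2 are those with the most Gpa33. Signs turned for the difference of Cftr (0.0299 without these libraries), for Ceacam1 in KO/NTZ versus KO/PEG (0.10 for ENSMUST00000098668) and for Ceacam1 in WT/NTZ versus WT/PEG (-0.0668 for ENSMUST00000098666). RLE size factors, no filter, the summed pair, the libraries numbered 110 left out and mitochondrial genes left out changed no call of the 6 genes. No paired analysis was possible because the groups share 1 animal number only. Depth limits Cdh17 in every group and Cftr in WT libraries.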
